A study of Mus musculus with 15 samples.

Results

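The cytosolic ribosome of mouse liver was followed here through the messenger RNAs of its protein subunits. The set comprised the protein-coding genes whose whole symbol is Rps or Rpl, a number and at most the letters a, x, y or l, together with Rpsa, Rplp0, Rplp1 and Rplp2, and without the ribosomal S6 kinases. By this rule 81 of 54281 listed genes were members, 31 of the small subunit and 50 of the large subunit. Of these, 78 passed a filter on low values, which asked for 3 or more libraries at least 1 log2 unit over the table's lowest value, as did 11568 genes in all. The rule for the 81 members used names only, while the filter used measured values. The set was chosen with earlier results of these data known.

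Livers of 15 male C57BL6J mice, 9.5 months old, were sequenced with 1 library per animal. Chow saline mice (n = 3) and chow MCOPPB mice (n = 5) received only the vehicle at 2 weeks of age and stayed on chow. DEN/HFD saline mice (n = 4) and DEN/HFD MCOPPB mice (n = 3) received 25 mg/kg of diethylnitrosamine (DEN), a liver carcinogen, at 2 weeks, and from week 6 a high fat diet (HFD) with 60% of energy from lard for 32 weeks. MCOPPB, an agonist of the nociceptin receptor, was injected intraperitoneally at 5 mg/kg on 5 consecutive days followed by 2 days of washout, for 3 cycles and 21 days in all, and saline was injected in the controls. No group received DEN or the high fat diet alone, so effects of the carcinogen and of the diet cannot be told apart. In whole liver, fewer cells of a type and less RNA per cell cannot be told apart either.

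Each cytosolic ribosome holds a small subunit, which reads the messenger RNA, and a large subunit, which forms the peptide bond. Apart from the stalk proteins Rplp1 and Rplp2, which are held as pairs, their proteins are made in equal numbers. Most of the messenger RNAs of these proteins start with a terminal oligopyrimidine (TOP) motif, a C at the cap followed by a run of C and T (U in RNA). Through this motif, translation of these messages is held back by LARP1 when the kinase mTORC1 is inactive, which is control of translation and not of RNA level. In the liver, ribosome synthesis is known to follow feeding, growth and regeneration.

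The albumin gene Alb was the most abundant gene in 15 of 15 libraries, and 10 of 10 hepatocyte markers passed the filter. Estimated depth was 9.32 to 18.7 M assigned reads per library, and the 10 most abundant genes held 32.0% to 43.6% of normalized counts. RNAs of the mitochondrial genome held 12.01% to 31.0%. The ribosomal protein genes together held 0.557% to 1.35% of normalized counts, with a median of 0.954%. Chow saline 2 and chow MCOPPB 4 had the highest means over the member genes in their groups and in the series, with mitochondrial shares of 29.3% and 31.0%. Results that rest on them are also given without them. In chow saline, replicate 1 lay farther below the middle library than replicate 2 lay above it.

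Levels of single members were spread widely. Median normalized counts over the 15 libraries ran from 59.8 for Rpl12 to 5581 for Rps2, with 1389 as the median member. Per kilobase of transcript, the lowest member was again Rpl12 with 48.1 normalized counts per kb, and the highest was Rpl41 with 6129, a ratio of 127 between proteins that the ribosome holds in equal number. Rpl41 encodes the shortest ribosomal protein, and Rpl26 (5913 per kb), Rps2 (5592 per kb) and Rpl17 (4964 per kb) followed it. The low end held Rpl5 (112 per kb), Rps20 (219 per kb) and Rps27 (313 per kb) above Rpl12. The value of Rps20 is understated per kb, since its only coding transcript model in the annotation is 3706 bases long. The median member stood at 1999 normalized counts per kb, with 2048 for the small subunit and 1908 for the large subunit.

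Ribosomal protein genes have many near-identical copies in the mouse genome, so that reads can be shared between a member and a copy. Of all 75-base windows of a member's transcript, a median of 49.2% occurred in no transcript of another annotated gene, with a range of 1.48% for Rps27 to 100% for Rps3. Across the 78 genes, which are not independent replicates, the level per kb followed this share neither by Pearson's r (0.075) nor by Spearman's rho (0.060). The 19 members with under 25% of unique windows had a median of 1706 per kb, and the 13 members with 75% or more had 2048 per kb. Copies that are not annotated as transcribed were not counted, so levels of members with low shares are uncertain. Rps27 was the extreme case. Its normalized counts were 42.1, 113 and 2.90 in chow saline, 1131, 56.2, 33.4, 62.8 and 317 in chow MCOPPB, 108, 1069, 38.04 and 511 in DEN/HFD saline, and 20.8, 132 and 823 in DEN/HFD MCOPPB. Values spread widely within every group, with the highest libraries outside chow saline. The highest was 390 times the lowest. No direction is read from this gene below, though it is among the 78 counted and its points are named in a figure.

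The main pattern in these genes lay between animals of the same group. The mean log2 level of the 78 genes was 10.15, 11.12 and 10.69 in chow saline. It was 10.37, 10.30, 10.22, 11.04 and 10.42 in chow MCOPPB. In DEN/HFD saline it was 10.94, 10.51, 10.28 and 10.19, and in DEN/HFD MCOPPB 10.18, 10.63 and 10.72. Each group thus held at least 1 low library near 10.2 and at least 1 library above 10.7, and all 4 groups overlapped. The standard deviation within groups was 0.358, while the group means were 10.65, 10.47, 10.48 and 10.51 in the order above and spanned less than that.

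**Figure D1:**
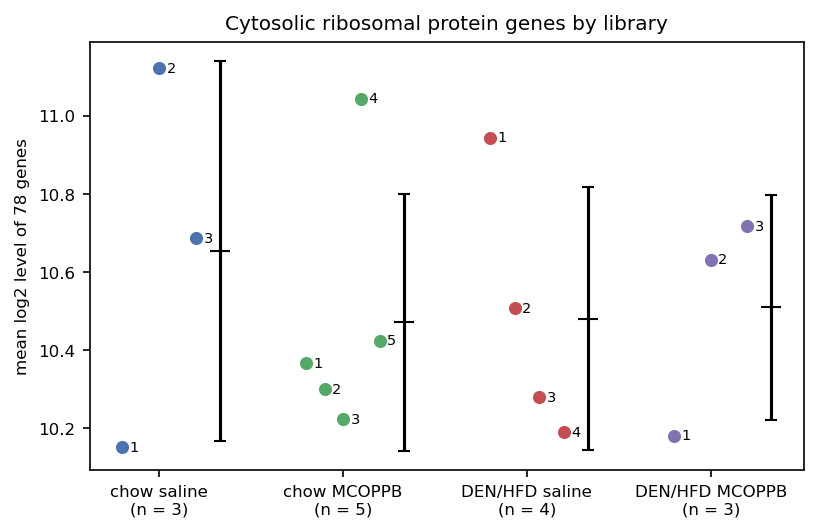
Mean log2 level of the 78 ribosomal protein genes (y axis, variance-stabilized log2 units) in each library, by group (x axis); numbers beside points are replicate numbers and bars give the group mean ± SD. Libraries of 1 group spread over as much as 0.970 units, and the 4 groups overlap.

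The genes moved as a block. In chow saline 2, 73 of 78 members lay above their own mean over the 15 libraries, in chow MCOPPB 4 74 did, and in DEN/HFD saline 1 72 did. At the other end, 1 member did so in DEN/HFD MCOPPB 1, 4 in DEN/HFD saline 4, 7 in chow MCOPPB 3 and 8 in chow saline 1. Over all genes tested, between 48.5% and 49.7% lay above their own mean in each library, a share that the deposited scaling, which centres each library on its typical gene, holds near the middle.

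Rpl28, a large-subunit protein of animals that baker's yeast lacks, followed this block most closely. Its normalized counts were 804, 2689 and 1473 in chow saline, and 1130, 1289, 968, 2741 and 1482 in chow MCOPPB. They were 2863, 1668, 1369 and 1065 in DEN/HFD saline, and 1025, 1874 and 2021 in DEN/HFD MCOPPB. The highest library was similar in chow saline, chow MCOPPB and DEN/HFD saline and lower in DEN/HFD MCOPPB, and the 4 groups overlapped. Rpl26, which lies near the exit of the nascent chain tunnel, showed the same order, with 2440, 6725 and 4049 in chow saline and 6145 in chow MCOPPB 4 against 2423 to 3110 in the other 4 libraries of that group.

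Once group means were removed, the 3003 pairs of members had a median correlation of 0.858 over the 15 libraries, and 80.9% of pairs exceeded 0.5. Pairs of all genes tested had a median of -0.0003, with 9.10% over 0.5. These correlations are descriptions: the points share libraries, depth and RNA quality. The correlation of a member with the mean of the other members had a median of 0.942, and 70 of 78 members exceeded 0.5. Rpl28 had the highest value (0.987), and Rpl26 (0.985) and Rpl21 (0.980) were also among the closest. The means of small-subunit and large-subunit genes had a correlation of 0.987 with each other. The first principal component of the members held 78.3% of their standardized variance within groups, against 26.6% over all genes. Without chow saline 2 and chow MCOPPB 4 the median pairwise correlation was 0.793, and after centring each library within deciles of transcript length it was 0.630. Both of these settings were chosen after the data were seen.

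**Figure D2:**
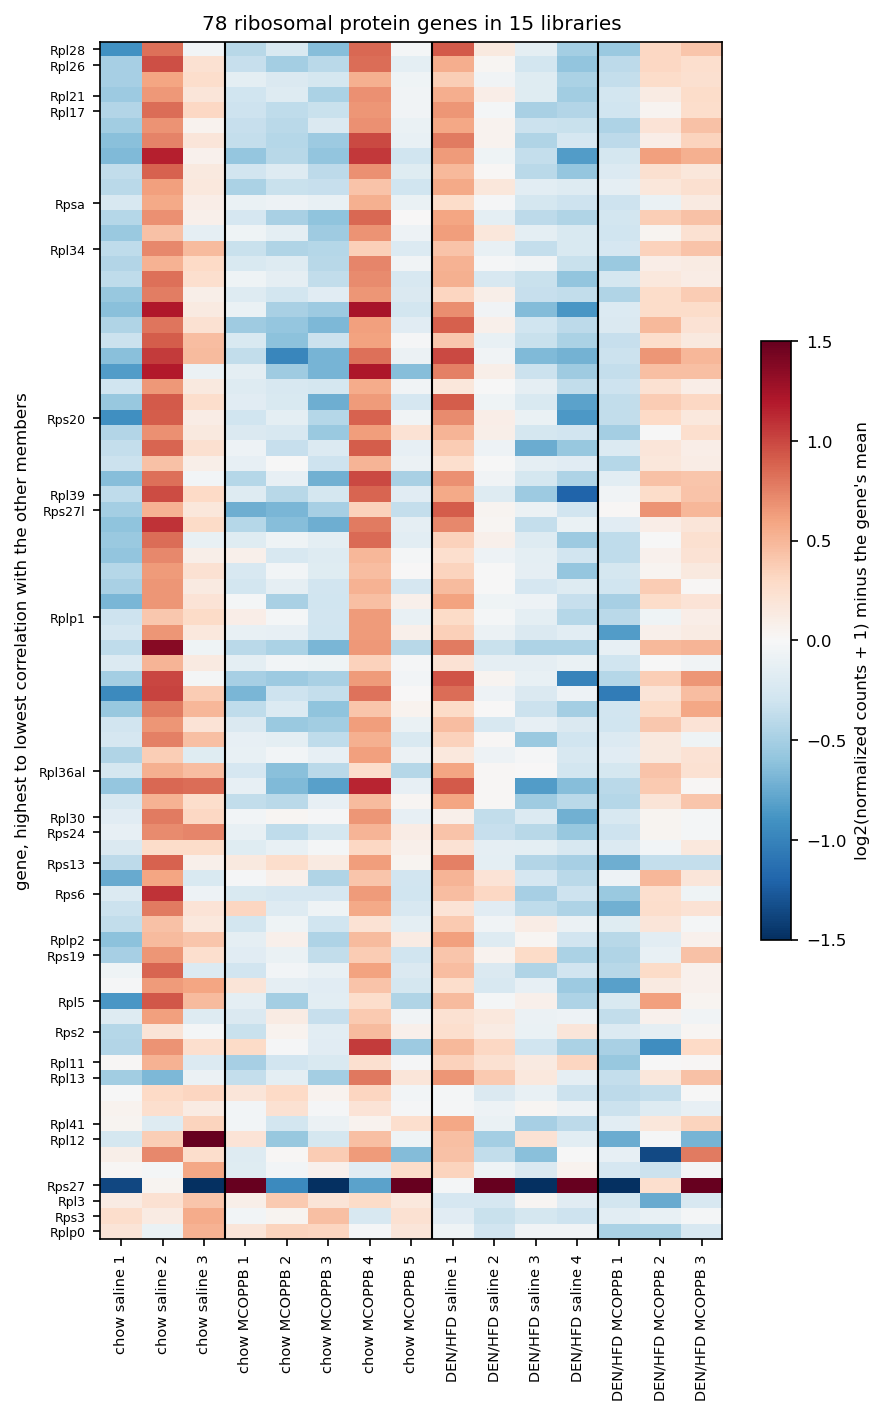
Deviation of log2(normalized counts + 1) from each gene's own mean (colour, clipped at 1.5 units) for the 78 genes (rows, ordered by correlation with the other members, a subset labelled) in 15 libraries (columns, groups split by black lines). Chow saline 2, chow MCOPPB 4 and DEN/HFD saline 1 are high over nearly the whole column, and Rplp0, Rps3, Rpl3 and Rps27 at the bottom do not follow.

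A small set of members did not follow the block. Rplp0, the scaffold of the stalk that recruits elongation factors, had a correlation of -0.39 with the mean of the other members. Rps3, which lines the entry channel for messenger RNA, had -0.32, Rpl3, a protein close to the peptidyl transferase centre, had -0.06, and Rps27 had 0.06. Of the remaining 74 members, Rpl9, Rpl10, Rpl12 and Rpl41 were also under 0.5. Without chow saline 2 and chow MCOPPB 4, the values of Rplp0 and Rps3 were 0.32 and 0.36, and that of Rpl3 was -0.14. With centring within length deciles they were -0.68, -0.31 and -0.52. Rplp0, Rps3 and Rpl3 have transcripts of 1358, 1908 and 1351 bases. Members of 1000 bases or more had a median correlation of 0.892 (17 genes), beside 0.941 for at least 500 and under 1000 bases (43 genes) and 0.948 for under 500 bases (18 genes).

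Since these genes moved together, the sequence at their transcription starts was examined in RefSeq promoters (GRCm38.p6), which matched 61 of the 81 genes with 73 promoters of 300 bases each. A pyrimidine tract was counted where a C followed only by further C or T letters, at least 7 letters in all on the gene's strand, began within 10 bases of the annotated start. It was found in 25 of 73 member promoters (34.2%) and in 11.1% of the 32851 promoters in the table. Transcription starts were not mapped in these libraries, so a gene without a tract by this rule may still carry a TOP motif. The windows below run from 30 bases before the start to 20 bases from it on, 5′ to 3′. Rpl28 and Rps6 are shown as members that follow the block and carry the tract, Rps27 as one that carries it and does not follow, Rpl26 as a close follower without it, and Rplp0 and Rps3 as non-followers without it. Capitals mark the tract in Rpl28, Rps6 and Rps27 and the motif CCGGAAG in Rpl26.
Rpl28: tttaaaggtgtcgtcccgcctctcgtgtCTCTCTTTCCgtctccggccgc
Rps6: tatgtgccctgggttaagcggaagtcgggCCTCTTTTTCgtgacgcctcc
Rps27: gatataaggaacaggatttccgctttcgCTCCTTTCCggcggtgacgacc
Rpl26: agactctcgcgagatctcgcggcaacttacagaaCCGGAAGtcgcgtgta
Rplp0: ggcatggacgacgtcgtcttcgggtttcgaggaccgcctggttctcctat
Rps3: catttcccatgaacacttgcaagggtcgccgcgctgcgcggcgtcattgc
The windows lie at chr7:4792935-4792984 (plus strand) for Rpl28, chr4:86857348-86857397 (minus) for Rps6 and chr3:90213629-90213678 (minus) for Rps27. Those of Rpl26, Rplp0 and Rps3 lie at chr11:68901536-68901585 (plus), chr5:115559437-115559486 (plus) and chr7:99483690-99483739 (minus).

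In Rpl28 and Rps27 the tract began 2 bases before the annotated start, with 10 and 9 letters, and in Rps6 1 base before it, with 10 letters. Followers and non-followers occurred both with and without the tract. The 24 genes with a tract that passed the filter had a median correlation with the other members of 0.944 (range 0.0574 to 0.987), and the 34 without one had 0.937 (range -0.385 to 0.985). The 4 further motifs were searched in the 300 bases, none of which contains another. CCGGAAG, the core of sites for ETS factors, was found on either strand in 35.6% of member promoters and 8.86% of all. GGGCGG, the core of Sp1 sites, was found on either strand in 58.9% and 35.7%. AAGATGGC, the core of YY1 sites, was found on either strand in 9.59% and 2.75%, and TATAAA on the gene's strand in 6.85% and 8.32%. The promoters were not matched for base composition, and a match is no evidence of binding.

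Other gene groups moved in the same libraries. Nuclear-encoded subunits of oxidative phosphorylation (73 genes) lay 0.393, 0.505 and 0.489 above their own means in chow saline 2, chow MCOPPB 4 and DEN/HFD saline 1, and 0.480 below in chow saline 1. The ribosomal protein genes lay 0.604, 0.525 and 0.426 above and 0.366 below in these libraries. These values are means over genes, while medians over genes were taken for the classes by transcript length. Short protein-coding genes outside the set (804 genes with transcripts under 1 kb) lay 0.163, 0.260 and 0.301 above and 0.275 below. Long ones (3090 genes over 4 kb) went the other way, with -0.0521, -0.0961 and -0.111, and 0.114 in chow saline 1. In DEN/HFD MCOPPB 1 the groups parted: the ribosomal protein genes lay 0.337 below their own means, beside 0.032 below for oxidative phosphorylation and 0.027 below for short genes. The part of transcript length, RNA quality or mitochondrial share in the block pattern was not tested. After centring within deciles of transcript length, the standard deviation of the member mean within groups was 0.226 in place of 0.358.

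Among the 11490 genes outside the set, 588 (5.12%) had a correlation over 0.8 with the member mean. The 10 most alike were Pfn1 (0.987), Fau (0.978), Ndufb2, Ppdpf, Snrpd2, Ndufs7, Ndufs5, Gm2000, Ndufa5 and Fxyd1 (0.970). Pfn1 encodes the actin-binding protein profilin, Fau encodes a fusion that releases the small-subunit protein S30, and the Ndu genes encode subunits of respiratory complex I. Fau lay outside the symbol rule, as did Rps3a1, Rack1, Rpl22l1 and Rpl7l1, which also encode ribosomal or ribosome-bound proteins or their paralogs. The correlation was 0.909 for Rack1, 0.395 for Rps3a1 and -0.682 for Rpl7l1.

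On chow, no ribosomal protein gene passed the test for MCOPPB. By limma, 0 of 78 members were called at an adjusted p under 0.05, where 0.32% of all genes were, and 0 had an unadjusted p under 0.05, where 9.06% of all genes did. The members leaned downward, with 70 of 78 negative and a median log2 difference of -0.19, beside 0.00 for all genes (49.9% negative). The lean moved with single libraries. Without chow saline 2 the median was 0.05 and 49 members were positive. Without both chow saline 2 and chow MCOPPB 4 it was -0.10 with 15 positive. Without chow saline 1 it was -0.44, with 15 members at an unadjusted p under 0.05, and without chow MCOPPB 4 it was -0.34, with 10 such members. Under a rescaling to nuclear genes without the 10 most abundant, all genes shifted by 0.13 and the members stood at -0.08, again below all genes. Standard errors of single members had a median of 0.263, larger than the median difference. The smallest p was that of Rpl36al, a retained copy of Rpl36a. Its normalized counts were 1815, 3169 and 3001 in chow saline and 1827, 1411, 1643, 2610 and 1618 in chow MCOPPB, so the groups overlapped. The difference was -0.52 ± 0.25 (SE; limma, adjusted p = 0.555). Rpl34, Rps24 and Rpl12 came next with -0.44, -0.46 and -0.37. The groups of no member were free of overlap, where 4.77% of all genes were. Beside this comparison, Kupffer cell markers summed to 881 to 1140 normalized counts in chow saline and 1620 to 2827 in chow MCOPPB. Of these markers 7 of 7 were positive (50.1% of all genes), 5 had an unadjusted p under 0.05 (9.06% of all genes) and 0 were called. The first RIN value of the labels was 9.9 to 10 in chow MCOPPB and 9 to 9.7 in chow saline. The first RIN did not overlap between these groups, so effects of RNA quality and of MCOPPB cannot be told apart. The part of the markers in the members' values was not tested. With the first RIN as covariate the median was -0.66, 14 members had an unadjusted p under 0.05 and 0 were called.

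MCOPPB under DEN/HFD gave no member an adjusted p under 0.05 either (limma, 0 of 78, where 0.0259% of all genes were called), and 0 had an unadjusted p under 0.05, against 4.74%. Of the members 45 were positive (49.3% of all genes) and 33 negative, with a median of 0.05 beside -0.00 for all genes. The smallest p belonged to Rpl11, which joins Rpl5 and the 5S ribosomal RNA in the particle that can bind the p53 regulator MDM2. Rpl11 had 2378, 2192, 2058 and 2353 normalized counts in DEN/HFD saline and 1265, 1865 and 1892 in DEN/HFD MCOPPB. All 3 treated libraries were below all 4 saline libraries, with a difference of -0.42 ± 0.21 (SE; limma, adjusted p = 1.00). On chow the groups of Rpl11 overlapped, with 1896, 2683 and 1622 against 1330, 1541, 1594, 2207 and 1846. Over both diets its difference was -0.34 ± 0.14, the only member with an unadjusted p under 0.05 in that comparison, and its adjusted p was 0.698. Its partner Rpl5 had -0.12 ± 0.19 over both diets. Of the windows of Rpl5 only 7.51% were unique, beside 39.0% for Rpl11, so reads from copies may be included. Rps3 and Rpl4 were the other members whose groups did not overlap under DEN/HFD (3 of 78, where 6.96% of all genes did not overlap), Rps3 higher and Rpl4 lower with MCOPPB.

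The MCOPPB effects were then compared between the diets. No member differed (limma, 0 of 78 called, against 0.0692% of all genes, and 0 at an unadjusted p under 0.05, against 5.9%). The median difference of the effects was 0.22, with 62 of 78 members positive (49.4% of all genes). It was -0.01 with 38 positive without chow saline 2, 0.13 with 52 positive without both chow saline 2 and chow MCOPPB 4, and 0.49 without chow saline 1, where 10 members had an unadjusted p under 0.05. Without DEN/HFD saline 1, chow MCOPPB 4 or DEN/HFD MCOPPB 1, 6, 4 and 1 members had one, and 9 did with the first RIN as covariate. Over both diets, 0 of 78 members were called for MCOPPB (limma, 0.372% of all genes), and 1 had an unadjusted p under 0.05, against 6.5%. Their median was -0.08, with 66 negative (50% of all genes). It turned to 0.11 under the rescaling to nuclear genes, where all genes stood at 0.20, and to 0.03 without chow saline 2, and it was -0.02 without both chow saline 2 and chow MCOPPB 4.

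**Figure D3:**
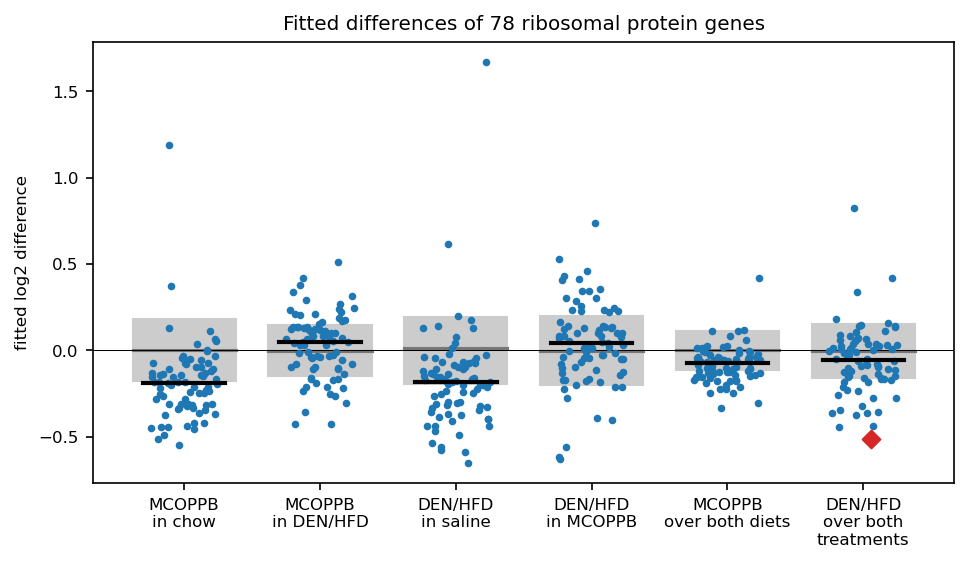
Fitted log2 differences (y axis) of the 78 genes (blue points) in 6 comparisons (x axis), with their median (black line), and the median and middle 50% of all 11568 genes (grey line and box); the red diamond is the called member. Rpl3, lower under DEN/HFD over both treatments, is the only called gene. The highest points in the columns for MCOPPB in chow and DEN/HFD in saline are Rps27, of whose windows 1.48% were unique. No direction is read from Rps27, whose counts spread widely within every group.

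Under DEN/HFD, Rpl3 was lower, by a call that most alternative settings did not give. It was the only member called in any of these comparisons. Over both treatments 1 of 78 members was called by limma, where 1.32% of all genes were (0.579% lower), so members were called about as often as all genes. Of the members 6 had an unadjusted p under 0.05, where 16.7% of all genes did, all 6 with negative differences (8.07% of all genes, a similar share). Of all members 31 were positive (49.6% of all genes), with a median of -0.06. Without both chow saline 2 and chow MCOPPB 4, 59 were positive (median 0.14) and 12 had an unadjusted p under 0.05. After centring within deciles of transcript length, 14 were positive (median -0.13) and 14 had such a p. The share of all genes with such a p was not counted under these 2 settings. Rpl3 (ENSMUSG00000060036 in GENCODE, chr15:80077791-80091868, minus strand, GRCm38) had 2145, 2316 and 2639 normalized counts in chow saline and 2102, 2594, 2250, 2403 and 2197 in chow MCOPPB. It had 1660, 1658, 2016 and 1752 in DEN/HFD saline and 1630, 1165 and 1669 in DEN/HFD MCOPPB. All 7 DEN/HFD libraries lay below all 8 chow libraries, and the share of all genes separated in this way was not counted. Group means were 2367 ± 251 (SD, n = 3), 2309 ± 193 (n = 5), 1772 ± 169 (n = 4) and 1488 ± 281 (n = 3). The fitted difference was -0.51 ± 0.12 (SE; limma, adjusted p = 0.0411), close to the threshold, and only 10 of 28 alternative settings called it (adjusted p 0.0235 to 0.527, difference -0.60 to -0.43 in all of them). The call was lost without any 1 of 12 of the 15 libraries (limma, adjusted p 0.0514 to 0.115), and held only without chow saline 1, DEN/HFD saline 3 or DEN/HFD saline 4. Of its 75-base windows 16.8% were unique, so reads from copies of Rpl3 may be included. Within treatments it was -0.40 ± 0.17 in saline mice (limma, adjusted p = 0.398) and -0.62 ± 0.17 in MCOPPB mice (0.107).

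The other 5 members with an unadjusted p under 0.05 over both treatments, Rplp0, Rps3, Rps4x, Rps13 and Rpl30, were not called. Rplp0 (chr5:115559467-115563727, plus strand) had 1729, 1411 and 2179 normalized counts in chow saline and 1712, 1910, 1893, 1496 and 1722 in chow MCOPPB. Under DEN/HFD it had 1443, 1242, 1463 and 1462 with saline and 1090, 1091 and 1282 with MCOPPB. Only the MCOPPB groups were free of overlap, and the difference over both treatments was -0.44 ± 0.12 (SE; limma, adjusted p = 0.0792). With array weights, without chow saline 2, and without both chow saline 2 and chow MCOPPB 4, Rplp0 was called, with differences of -0.50, -0.51 and -0.54.

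Rps3 (chr7:99477896-99483738, minus strand) had 2466, 2219 and 3011 in chow saline and 1819, 1622, 1704 and 1655 in DEN/HFD saline, so all 4 DEN/HFD libraries were lower. In MCOPPB mice it had 1984, 2100, 2790, 1732 and 2390 on chow and 1830, 1901 and 2009 under DEN/HFD, which overlapped. Its difference was -0.56 ± 0.18 in saline mice (SE; limma, adjusted p = 0.260) and -0.18 ± 0.17 in MCOPPB mice. All windows of its transcript were unique to it. Rps4x, the X-linked small-subunit protein S4, had -0.38 ± 0.12 over both treatments (limma, adjusted p = 0.111), and Rps13 and Rpl30 had -0.44 ± 0.19 and -0.37 ± 0.17. Rplp0, Rps3 and Rpl3, which had negative correlations with the other members over the 15 libraries, varied little: their spread within groups (0.170, 0.184 and 0.163 log2 units) was below the median of 0.396 over members.

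**Figure D4:**
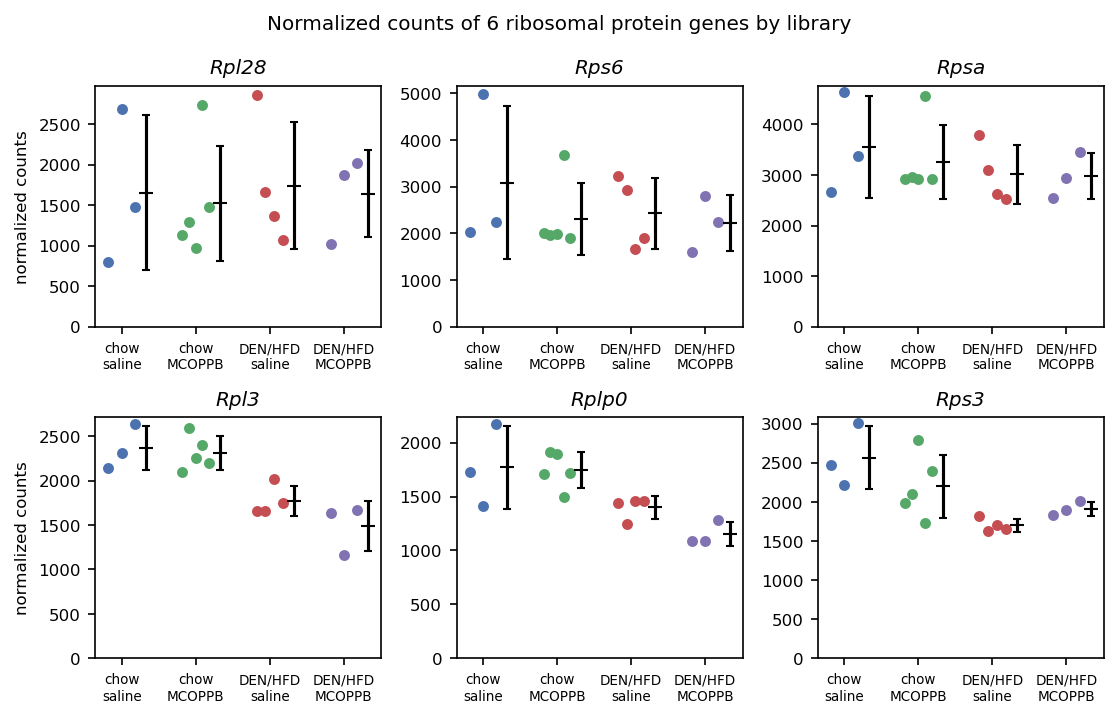
Normalized counts (y axis, from 0) of 6 ribosomal protein genes by group (x axis), 1 point per library, with the group mean ± SD in black. Rpl28, Rps6 and Rpsa vary widely within each group, while Rpl3 is lower in all 7 DEN/HFD libraries than in all 8 chow libraries. The share of all genes separated in this way was not counted.

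Within saline mice, 0 of 78 members were called for DEN/HFD (limma, 0.0519% of all genes), and 6 had an unadjusted p under 0.05, where 11% did. They were Rps3, Rpl30, Rps24, Rpl3 and Rps27a with negative differences (5.5% of all genes) and Rpl13 with a positive one (5.46%). Members leaned downward, with 68 of 78 negative (48.6% of all genes) and a median of -0.18 beside 0.01 for all genes, but the median was 0.07 without chow saline 2, with 2 members at an unadjusted p under 0.05. Without chow saline 1 it was -0.45, with 4 positive and 16 at such a p. The count was 2 without chow saline 3, DEN/HFD saline 2 or DEN/HFD saline 4. Rps3, Rps4x, Rpl4 and Rpl3 did not overlap between the groups (4 of 78, where 9.09% of all genes did not). Within MCOPPB mice, 0 of 78 were called (limma, 0.571% of all genes), 5 had an unadjusted p under 0.05 (12.3% of all genes), and the median was 0.04 with 45 positive (49.4% of all genes). Without both chow saline 2 and chow MCOPPB 4, 59 were positive and 13 had an unadjusted p under 0.05, and 8 did with the first RIN as covariate. The count was 3 without DEN/HFD MCOPPB 2. Rpl4, Rpl3, Rplp0 and Rps13 did not overlap there (4 of 78, 9.31% of all genes), with the DEN/HFD libraries below the chow libraries for each. The comparisons in saline mice and of MCOPPB on chow share the 3 chow saline libraries, so their downward leans are not separate observations. Across the 4 groups together, the limma F test called 0 of 78 members (0.985% of all genes), and 4 had an unadjusted p under 0.05, against 13%.

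Rpl4, a large-subunit protein at the nascent chain tunnel, had 3274, 3573 and 3737 normalized counts in DEN/HFD MCOPPB, below all 12 other libraries. It had 3867 to 4154 in DEN/HFD saline. On chow it had 4240 to 4881 with saline and 3956 to 4800 with MCOPPB. The difference over both treatments was -0.23 ± 0.11 (SE; limma, adjusted p = 0.301). The share of all genes with a group below all other libraries was not counted. Beside the DEN/HFD differences, 5 of 7 stellate cell markers were positive over both treatments, 4 had an unadjusted p under 0.05 and 1 was called higher. Of all genes 49.6% were positive, 16.7% had such a p and 0.743% were called higher. The called marker was the collagen gene Col1a2 (1.06 ± 0.24 over both treatments, limma, adjusted p = 0.0370). Col1a2 was not called with the first RIN as covariate, where 0 of all genes were. The summed counts of the 7 markers were 964 to 2493 in chow saline, 1202 to 1818 in chow MCOPPB, 1166 to 3388 in DEN/HFD saline and 1845 to 2459 in DEN/HFD MCOPPB. Kupffer cell markers had 6 of 7 positive over both treatments, with 5 at an unadjusted p under 0.05, 0 called and a median of 0.46. Of all genes 1.32% were called there, with the other shares as given for the stellate markers. The first RIN was 8.7 to 9.2 in DEN/HFD MCOPPB and 9.9 to 10 in chow MCOPPB. The part of the markers in the members' values was not tested. With the first RIN as covariate, Rpl3 had a difference of -0.43 and was not called (limma, adjusted p = 0.527).

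The members with roles in regulation were followed by name. Rps6, the substrate of S6 kinase downstream of mTORC1, had 2036, 4980 and 2237 normalized counts in chow saline and 2015, 1971, 1979, 3676 and 1910 in chow MCOPPB. It had 3234, 2919, 1670 and 1904 in DEN/HFD saline and 1600, 2807 and 2250 in DEN/HFD MCOPPB. The groups overlapped, with -0.33 ± 0.31 for MCOPPB on chow and -0.15 ± 0.22 for DEN/HFD over both treatments (SE). Of its windows 15.9% were unique. The stalk proteins Rplp1 and Rplp2, which bind to Rplp0 as pairs, did follow the block (0.946 and 0.878), and had -0.18 ± 0.16 and -0.11 ± 0.17 under DEN/HFD over both treatments. Rpsa, which also serves as a laminin receptor, had group means of 3557 ± 1011 (SD, n = 3), 3257 ± 725 (n = 5), 3012 ± 579 (n = 4) and 2978 ± 461 (n = 3) from chow saline to DEN/HFD MCOPPB. Rps19, mutated in Diamond-Blackfan anaemia, ranged from 736 to 1644, both in chow saline, and had 0.01 ± 0.18 under DEN/HFD over both treatments.

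Of the variant members, 3 were near or at 0. Rpl39l, a copy known from testis, was listed at the lowest value in all 15 libraries, and Rpl10l, also known from testis, was above it in 1 library with 3.19 normalized counts. Rpl3l, the form of heart and skeletal muscle, had 16.4 and 30.6 in chow saline 2 and 3, 27.7 in chow MCOPPB 4 and 2.61 in DEN/HFD saline 4, and was at 0 in the other 11 libraries. These 3 genes failed the filter and were not tested. Rps27l, a copy of Rps27 that p53 can induce, was at 2719 per kb, well above Rps27. It had 944, 1926 and 1506 normalized counts in chow saline and 805, 831, 945, 1697 and 1050 in chow MCOPPB, and 2517, 1374, 1258 and 1095 in DEN/HFD saline and 1357, 2134 and 1900 in DEN/HFD MCOPPB. In MCOPPB mice it was 0.74 ± 0.29 higher under DEN/HFD, with overlapping groups (SE; limma, adjusted p = 0.290). Of its windows 88.0% were unique.

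The wider translation machinery was set beside the members from lists chosen with earlier results known. Of 18 translation factors whose messages also carry TOP motifs, 0 were called in any comparison, with medians of -0.09 for MCOPPB on chow and -0.05 for DEN/HFD over both treatments. They split in their relation to the block: Eef1d (0.968), Tpt1 (0.946) and Eef1b2 (0.904) followed it, while Eef2 (-0.883), Pabpc1 (-0.853) and Eef1a1 (-0.843) went the other way. The transcripts of Eef2, Pabpc1 and Eef1a1 have 3089, 2817 and 1794 bases and those of Eef1d, Tpt1 and Eef1b2 have 2312, 1169 and 1939. Of 21 other initiation factors, 1 was called over both treatments under DEN/HFD, beside 1.32% of all genes: Eif4a2, an RNA helicase of the cap-binding complex, was lower by 0.59 ± 0.14 (SE; limma, adjusted p = 0.0491, close to the threshold). Eif4a2 was not called with the first RIN as covariate, where 0 of all genes were. Its group means were 2117 ± 508 (SD, n = 3) and 1946 ± 445 (n = 5) on chow and 1436 ± 134 (n = 4) and 1183 ± 203 (n = 3) under DEN/HFD, with saline and MCOPPB in that order. Of 30 ribosome biogenesis genes and 17 genes of the mTORC1 and LARP1 pathway, 0 were called in any comparison (limma), with 4 and 0 at an unadjusted p under 0.05 for DEN/HFD over both treatments, beside 16.7% of all genes. Of 78 mitochondrial ribosomal protein genes 0 were called in any comparison, and 56 were positive under DEN/HFD over both treatments (median 0.10; 49.6% of all genes). Of 78 cytosolic ones 31 were positive (median -0.06), a count that depended on the setting. It was 59 (median 0.14) without both chow saline 2 and chow MCOPPB 4, and 62 (median 0.19) with the first RIN as covariate. With centring within length deciles it was 14 (median -0.13). The mitochondrial genes were not counted under these settings, so no contrast between the 2 sets is drawn. The median correlation of the mitochondrial genes with the cytosolic block was 0.589. Of 7 small nucleolar RNA host genes 0 were called (limma), with 7 of 7 negative for MCOPPB on chow, and Gas5 and Zfas1, with -0.55 and -0.49, had an unadjusted p under 0.05. Of all genes 49.9% were negative there and 9.06% had such a p. The mean deviation of these host genes was 0.115, 0.487 and 0.0146 in chow saline 1, 2 and 3, so it too was highest in chow saline 2.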

How the data were processed

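Liver RNA of 15 mice in 4 groups, taken from the sample titles, was measured with 1 library per animal from directional libraries read as single reads of 75 bases, per the labels' protocols. The authors deposited variance-stabilized log2 values for 54281 Ensembl IDs. Trimmomatic, STAR 2.7.0e, HTSeq, DESeq2 and the build GRCm38 (mm10) are named per the submitters' processing notes. Their roles were not stated, nor how reads matching several genes were counted, which bears on genes with many copies.

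The lowest value, 5.49, stands for 0 reads. The transformation was inverted to normalized counts, which are used for levels. In each library, between 24.9% and 45.2% of low inverted values came out whole to within 0.01, so reads were not recovered, no count test was run, and depth (9.32 to 18.7 M) is an estimate without counting intervals. GENCODE M21 supplied symbols for 54107 IDs. Lengths are those of the shortest principal transcript. The transformation shrinks differences between libraries for weakly expressed genes.

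A gene was kept if 3 or more libraries exceeded the table's lowest value by at least 1 unit (22.5 normalized counts). limma 3.58.1 in R 4.3.3 was fitted to the 11568 kept genes with 4 group means over all 15 libraries (11 residual degrees of freedom, 6.34 prior ones at the median) and a mean-variance trend. P values are two-sided and adjusted by Benjamini-Hochberg over 11568 genes, with calls at an adjusted p under 0.05. Effects over both diets or treatments came from an additive model. On simulated data, 52.5% to 64.0% of 200 genes changed by 1 log2 unit were called per comparison. Alternatives were other scalings, filters, covariates, weights, a replicate block and leaving out libraries.

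Members and lists were chosen with earlier results of these data known. Named members were drawn from those called, the 4 smallest p per comparison within groups, the 4 highest and lowest levels per kb, variants, the 4 highest and lowest correlations, and 9 with known roles. Results for a few genes are not reported here. Named genes outside the set were the 10 most alike, called genes of the lists and up to 3 per list. Translation factors and genes outside the symbol rule named for their correlation, and Rpl4 and Rps4x, were chosen after their values were seen. The labels do not say that replicate numbers pair animals, so no block was used in the main fit. The 19 pairs of libraries with the same number had a mean residual correlation of -0.0273, beside 0.00838 for 64 other pairs. These values show no sign of pairing but cannot exclude it.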

Additional observations from a re-analysis of the deposited data

Results flagged for a closer look

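In groups of 4 or 5 libraries, a library was marked when its gap to the nearest other library was large for the range of its group. Chow MCOPPB 4 was marked for the mean of the 78 ribosomal protein genes, at 11.04 log2 units, where the other 4 libraries reached at most 10.42. The same library was marked for Rpl26 (12.61), Rpl30 (11.20), Rpl39 (11.10), Rps20 (10.69), Rps6 (11.88) and Rpsa (12.18), all on the log2 scale and high. DEN/HFD saline 2 was marked for a low value of Rplp0, the stalk scaffold, at 10.38. Over the members and their mean, 30 of 158 groups of libraries were marked (19.0%), where chance marks about 1 in 20. Most of these marks fell on the same library, chow MCOPPB 4. The members move together, so these marks are not independent of each other.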

How the results depend on the processing

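In 6 of the 7 comparisons, 0 members were called under the planned and added settings, apart from 2 (Rpl3 and Rplp0) for DEN/HFD in MCOPPB mice with array weights. For DEN/HFD over both treatments, the count of 1 went to 0 under quantile normalization, median centring, no filter, either RIN as covariate and the replicate block, and to 2 with array weights, with centring within length deciles, and without chow saline 2 and chow MCOPPB 4; the 2 last settings were chosen after seeing the data. It ranged from 0 to 1 when 1 library was left out. Without chow saline 2 the 1 called member was Rplp0 and not Rpl3. Over all genes, 153 were called in that comparison, beside 69 with the replicate block, 56 with no filter, 392 with array weights, 81 and 0 with the second and the first RIN as covariate, and 6 to 460 when 1 library was left out. The pairing check gave no sign that replicate numbers pair animals, though it cannot exclude this. With the replicate block 0 members were called in each comparison, with a median of -0.22 for MCOPPB on chow. With the first RIN as covariate, the median moved to -0.66 for MCOPPB on chow and 0.65 for DEN/HFD in MCOPPB mice. In both comparisons the first RIN did not overlap between the groups, so effects of RNA quality and of the group cannot be told apart. The spread of the member mean within groups moved from 0.358 to 0.226 with centring within length deciles. Leaving out 1 library gave medians of -0.44 to 0.05 for MCOPPB on chow, -0.07 to 0.21 for MCOPPB under DEN/HFD, -0.45 to 0.07 for DEN/HFD in saline mice, -0.05 to 0.22 for DEN/HFD in MCOPPB mice, -0.01 to 0.49 for the difference of the MCOPPB effects, -0.18 to 0.03 for MCOPPB over both diets and -0.17 to 0.05 for DEN/HFD over both treatments, so the sign of each depended on single libraries. The rescaling to nuclear genes shifted the median of all genes by up to 0.26.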
